A study of Mus musculus with 6 samples.

Results

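The elastic fibre genes Eln, Fbln1, Fbln2, Fbln5, Efemp1, Efemp2, Emilin1, Lox, Loxl1 and Loxl2 were followed in the mouse aortic root, 10 of the 55402 features counted. They were taken as a named list of elastin, fibulins, emilin-1 and lysyl oxidases, with no threshold on their values. All 10 were found once each in the feature lists of the 6 single-cell RNA libraries. Mice were male and 24 weeks old, the tissue was the aortic root, and 4 animals were pooled in each group. Each of 3 genotypes was sampled. The first carried the Marfan allele Fbn1 C1041G/+, a missense change in fibrillin-1, together with a floxed Klf4 allele whose deletion was induced in smooth muscle cells (SMCs). The second carried Fbn1 C1041G/+ with wild-type Klf4, and the third was the littermate control with neither change. Each group gave a lineage-positive library of tdTomato-fluorescent, SMC lineage-traced cells and a lineage-negative library of the remaining cells, and all groups share that lineage trace. The driver of the recombinase was not given in the sources used here.

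An elastic fibre is a core of cross-linked elastin on a scaffold of fibrillin microfibrils, and it gives the wall of a large artery its recoil. Eln encodes tropoelastin, the soluble subunit of the core. The fibulins are calcium-binding glycoproteins of the matrix, of which fibulin-5 (Fbln5) and fibulin-4 (Efemp2) bring tropoelastin to microfibrils and are required for normal elastic fibres in mice. Fibulin-1 (Fbln1), fibulin-2 (Fbln2) and fibulin-3 (Efemp1) lie in elastic fibres and basement membranes. Emilin-1 (Emilin1) is a glycoprotein found where elastin meets the microfibrils. Lysyl oxidase (Lox) and its relatives Loxl1 and Loxl2 are copper-dependent enzymes that oxidise lysines so that elastin or collagen chains can be cross-linked, and Loxl2 also acts on collagen IV of basement membranes.

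Promoter windows of 250 bases before to 50 after the start were taken from RefSeq (GRCm38.p6), which matched 6 of the 10 genes. Shown 5′ to 3′ are Fbln2 (chr6:91212514-91212813, plus strand) and Fbln5 (chr12:101819070-101819369, minus strand), both higher in modulated SMCs, and Efemp2 (chr19:5473696-5473995, plus strand), another fibulin whose level differed little. Capitals mark matches, on either strand, to a list of 6 motifs: GGGCGG (read by Sp1), CACCC (read by Klf factors), CAGAC (read by Smad proteins), GGAATG (read by Tead factors), TGANTCA (read by AP-1) and the CArG box.
Fbln2: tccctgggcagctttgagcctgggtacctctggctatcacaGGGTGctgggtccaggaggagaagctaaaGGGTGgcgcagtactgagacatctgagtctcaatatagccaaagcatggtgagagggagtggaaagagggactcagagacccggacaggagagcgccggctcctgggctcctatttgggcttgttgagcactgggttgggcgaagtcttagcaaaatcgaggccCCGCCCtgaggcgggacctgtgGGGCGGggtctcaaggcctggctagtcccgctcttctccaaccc
Fbln5: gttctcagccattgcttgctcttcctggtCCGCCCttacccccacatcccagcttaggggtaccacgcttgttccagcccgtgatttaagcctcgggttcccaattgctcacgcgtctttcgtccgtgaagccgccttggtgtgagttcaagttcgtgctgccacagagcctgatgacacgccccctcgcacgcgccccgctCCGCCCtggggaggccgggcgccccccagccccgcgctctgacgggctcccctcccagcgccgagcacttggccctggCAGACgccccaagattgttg
Efemp2: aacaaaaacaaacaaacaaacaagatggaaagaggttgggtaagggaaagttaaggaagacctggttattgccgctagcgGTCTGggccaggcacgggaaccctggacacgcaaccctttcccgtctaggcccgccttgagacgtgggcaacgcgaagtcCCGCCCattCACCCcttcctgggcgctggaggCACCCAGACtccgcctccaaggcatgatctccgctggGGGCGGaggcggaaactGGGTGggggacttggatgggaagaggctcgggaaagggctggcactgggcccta

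The CArG box, the motif that serum response factor is known to read in SMC genes, was in none of the 6 windows and in 1.63% of all 32851 windows of that length. GGGCGG was in 4 of the 6 and in 35.7% of all windows, CACCC in 3 and 57.5%, and CAGAC in 5 and 49.6%. A CACCC match overlaps a CAGAC match in Efemp2 and in Fbln1. TGANTCA was in 1 of the 6, Efemp1, against 7.81% of all windows, and GGAATG was in none, against 14.7%. These are letter matches in a short window and say nothing of binding.

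The genes lie on mm10 as annotated in GENCODE M21, each as a protein-coding gene with the ID version used in the files. Eln (ENSMUSG00000029675.12) is at chr5:134702593-134747323 on the minus strand, and Emilin1 (ENSMUSG00000029163.9) is at chr5:30913402-30921277 on the plus strand. Fbln1 (ENSMUSG00000006369.14) is at chr15:85205949-85286535, Fbln2 (ENSMUSG00000064080.12) at chr6:91212455-91272540 and Efemp1 (ENSMUSG00000020467.15) at chr11:28853204-28926743, all on the plus strand. Efemp2 (ENSMUSG00000024909.15) is at chr19:5473954-5482517 on the plus strand, and Fbln5 (ENSMUSG00000021186.9) is at chr12:101746565-101819055 on the minus strand. Lox (ENSMUSG00000024529.14) is at chr18:52516067-52529867 and Loxl1 (ENSMUSG00000032334.10) at chr9:58287738-58313186, both on the minus strand. Loxl2 (ENSMUSG00000034205.16) is at chr14:69609068-69695834 on the plus strand. Reads were counted as unique molecular identifiers (UMIs) from the 3′ end over the whole gene, so a level is compared between cells for the same gene and never between genes.

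The 6 libraries held 60200 barcodes and 47750360 to 95250397 UMIs each. Filters on UMIs, genes, mitochondrial share and doublets kept 39483 cells, in 17 clusters made without the 10 genes and named from marker lists. Each name means cells like that type by its markers, and the rebuilt names may differ from the study's. The Marfan lineage-positive library stood apart. Its 22905 barcodes, against 5167 to 8943 in the other libraries, had a median of 2143 UMIs per kept cell, against 9881 to 12858, and 53.4% of its cells formed a single shallow SMC cluster, cluster 0. The SMC class joins the lineage-positive cells of clusters 0, 2, 3 and 8, so cluster 0 holds most of its cells in the Marfan library and clusters 2 and 3 in the other 2. By UMIs, which set the levels, clusters 2 and 3 hold most of the class in each library. In Marfan they had 49.7% of the UMIs of kept cells, against 13.9% in cluster 0. Counts of the targeted gene went against a label: Klf4 was at 119.9 CPM (UMIs of a gene in 1000000 UMIs) in the SMC class of the library labelled Klf4-floxed, against 40.9 CPM in Marfan and 23.8 CPM in the control library. A 3′ tag need not lie in the deleted part, so these counts cannot show whether the deletion took place. Why they were higher was not tested, and that library is named by its label throughout. Any 2 libraries shared at most 24 cell barcodes. Each genotype is 1 pool and so 1 sample, and comparisons between genotypes have no replicate check and no p-value. Intervals in brackets are exact 95% intervals for counting error only.

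The sort into lineage-positive and lineage-negative cells was the only contrast with more than 1 library on a side, and it asked which fraction carries each transcript. Eln, Fbln5, Lox and Efemp2 were higher in the lineage-positive libraries, and Fbln1, Efemp1, Loxl2 and Fbln2 were lower. With edgeR's quasi-likelihood test, genotype as a block and Benjamini-Hochberg adjustment, 4 of 10 passed as higher and 4 as lower, where 34% and 37.4% of the 15205 genes tested did (71.4% in all). Eln, the core protein, had 1083, 948.7 and 794.1 CPM in the lineage-positive libraries labelled Klf4-floxed Marfan, Marfan and control, against 197.6, 165.5 and 224 CPM in the lineage-negative ones. The groups did not overlap, and the log2 fold was 2.59 ± 0.15 (SE, n = 3 libraries each, edgeR adjusted p = 0.000115). Fbln5 had 939, 759 and 642.2 CPM in the lineage-positive libraries, against 476.7, 385.4 and 485.3 CPM in the lineage-negative ones, again without overlap (log2 fold 1.11 ± 0.13 SE, edgeR adjusted p = 0.00111). Lox had 118.4, 142.3 and 100.1 CPM, against 41.4, 78 and 46.7 CPM in the lineage-negative libraries (log2 fold 1.48 ± 0.14 SE, edgeR adjusted p = 0.000476).

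Fbln1 lay on the other side, with 19.4, 26.1 and 35.5 CPM in the lineage-positive libraries labelled Klf4-floxed Marfan, Marfan and control, against 554.8, 584.4 and 801.6 CPM in the lineage-negative ones (log2 fold −4.28 ± 0.11 SE, edgeR adjusted p = 1.15e-05). Efemp1 had 4.56, 5.06 and 4.60 CPM, against 89.4, 89.7 and 97.0 CPM in the lineage-negative libraries (log2 fold −3.96 ± 0.07 SE, edgeR adjusted p = 8.91e-06). Loxl2 had 24.3, 26.4 and 13.2 CPM, against 95.7, 70.1 and 69.8 CPM (log2 fold −1.60 ± 0.18 SE, edgeR adjusted p = 0.00103). These 3 genes fell in every lineage-positive library relative to its partner. Fbln2 fell as well but was uneven within the lineage-positive fraction, at 46.7 and 63.8 CPM in the 2 Marfan genotypes and 8.33 CPM in control, against 172, 185.9 and 207.2 CPM in the lineage-negative libraries (log2 fold −2.27 ± 0.65 SE, edgeR adjusted p = 0.0268).

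Efemp2 and Emilin1 were near even, Loxl1 was lower in each lineage-positive library without passing the test, and the calls of Efemp2 and Loxl1 moved with the scaling. Efemp2 had 107.8, 104.4 and 96.3 CPM in the lineage-positive libraries, against 101.5, 103.3 and 92.0 CPM in the lineage-negative ones (log2 fold 0.38 ± 0.05 SE, edgeR adjusted p = 0.00238). Emilin1 had 134.9, 129.4 and 128.5 CPM, against 159.6, 145 and 126 CPM (log2 fold 0.19 ± 0.08 SE, edgeR adjusted p = 0.0737), and its groups overlapped. Loxl1 had 150, 136.7 and 101.5 CPM, against 206.9, 194.2 and 233.7 CPM (log2 fold −0.40 ± 0.15 SE, edgeR adjusted p = 0.0637), without overlap. With library sizes only, in place of the trimmed mean of M values (TMM), the median log2 fold of all genes was −0.35 in place of −0.03, and 2830 genes were higher and 8191 lower, in place of 5169 and 5687. Efemp2 was then at 0.06 and not called, Emilin1 at −0.13, and Loxl1 at −0.72 and called. Of 23 partner genes of the elastic fibre (fibrillins, microfibril proteins, latent TGF-β binding proteins and others), 5 were higher and 14 lower in the lineage-positive libraries, and of 12 tested proteases and inhibitors that bear on elastin breakdown 12 were lower. Over all genes tested, 34% were higher and 37.4% lower. Thsd4, a microfibril-associated protein, had the largest rise among the partners (log2 fold 3.85) and Emilin2 the largest fall (−6.75).

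**Figure D1:**
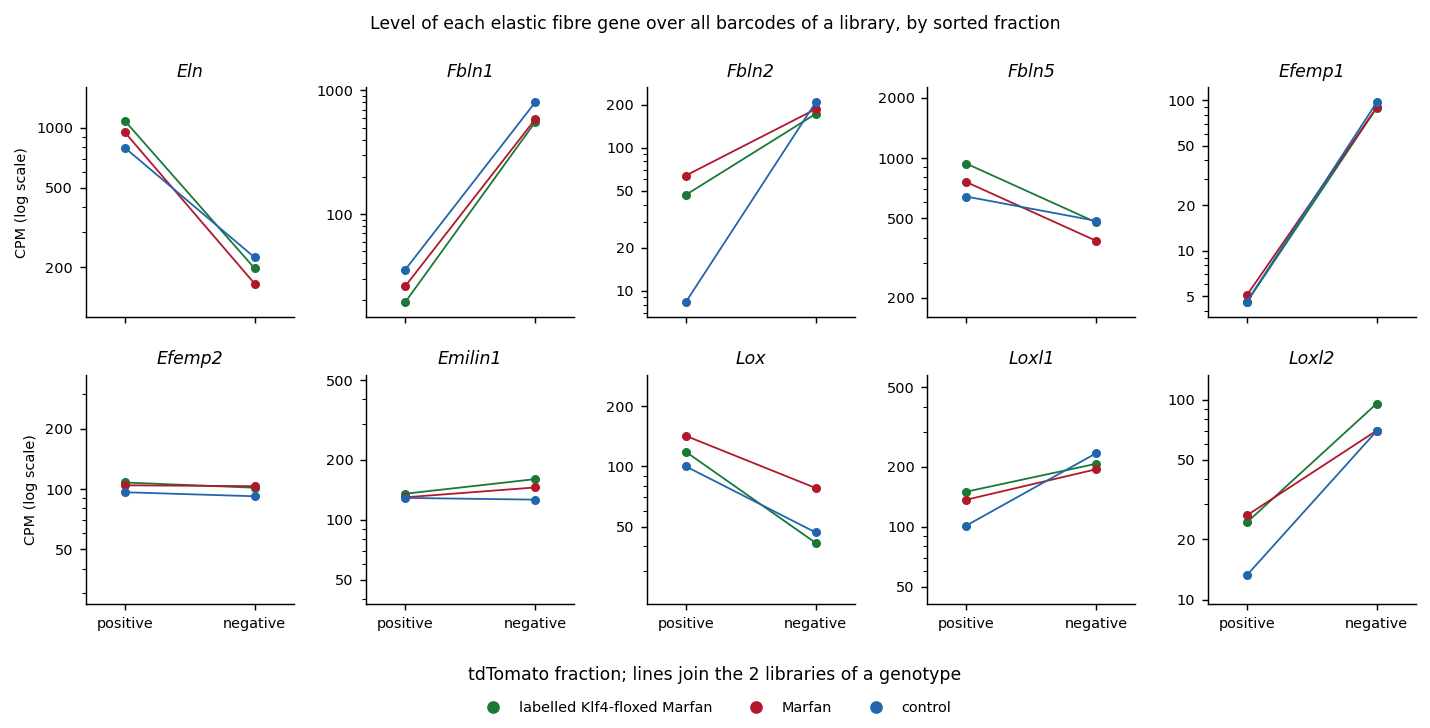
CPM of the 10 genes in each library (a panel for each gene, with its own log axis), lineage-positive libraries to the left of lineage-negative ones, a point for each genotype. Eln, Fbln5 and Lox points of the lineage-positive libraries lie above all lineage-negative points, and those of Fbln1, Fbln2, Efemp1 and Loxl2 lie below.

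Within the fractions, the source of each transcript was read from cell classes with at least 50 cells. Eln was highest in the SMC class, at 1116, 996.5 and 885.9 CPM in the libraries labelled Klf4-floxed Marfan, Marfan and control. In the lineage-negative fibroblast class Eln had 317.5, 225.2 and 361.8 CPM, in endothelial cells 449.5, 337.9 and 182.4 CPM, and in macrophages, which should lack it, 8.09, 8.45 and 5.61 CPM. After each cell was thinned to 2000 UMIs, 77.6%, 73.7% and 71.3% of SMC class cells held an Eln UMI (97.8%, 80.8% and 95.4% unthinned), against 1.37%, 2.14% and 1.31% of macrophages (6.1%, 6.75% and 6.2% unthinned). Median depth was 13549, 1836 and 11783.5 UMIs in the SMC class and 8684, 9606 and 10543 UMIs in macrophages. Thinning left out 125, 5083 and 97 shallower cells of the SMC class.

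Among the classes, with modulated SMCs counted in the SMC class, Fbln5 was highest in the valve interstitial or chondrocyte class, cluster 9. Its lineage-positive cells had 1374, 1412 and 1675 CPM and its lineage-negative cells 1104, 969.9 and 1118 CPM in the libraries labelled Klf4-floxed Marfan, Marfan and control. The SMC class followed with 926.8, 757.6 and 560.2 CPM and the fibroblast class with 648.7, 425 and 602 CPM, an order of neighbours that the control turns round. Modulated SMCs taken alone, described below, had more Fbln5 than lineage-negative cells of cluster 9 in each genotype. They also had more than its lineage-positive cells in both Marfan genotypes, but not in control. The lineage-positive cells of cluster 9 had few valve markers, with a sum of 1041, 2349 and 2689 CPM in the valve interstitial or chondrocyte class, against 14720, 15750 and 14940 CPM in lineage-negative cells. Lox was at 120.7, 144.7 and 103.7 CPM in the SMC class and 85.3, 150.1 and 74.4 CPM in the fibroblast class, and these ranges overlapped. The overlap came from the Marfan fibroblast value alone, which includes cluster 13, a population with high Lox described below. Summed over clusters 5 and 6, described below, the other Marfan fibroblasts lay below the SMC class range. Cluster 5 alone lay within that range in both Marfan genotypes and below it in control, and cluster 6 lay below it in each library. Lox was lowest outside immune cells in cluster 1, an unnamed lineage-negative population led by Prss35 and Cyp2e1 with fibroblast markers, at 5.95, 10.4 and 6.59 CPM.

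Fbln1 was highest in connective tissue cells. It had 815.3, 849.5 and 1072 CPM in the fibroblast class, 662, 793.9 and 871.5 CPM in cluster 1 and 421.7, 522.6 and 749.4 CPM in lineage-negative valve cells, and its level in control exceeded both Marfan genotypes in each. Without cluster 13, described below, its log2 ratio of Marfan to control in the fibroblast class was only −0.079. In the SMC class Fbln1 had 2.87, 8.34 and 5.11 CPM, against 15.8, 25 and 19.5 CPM in macrophages. The macrophages are from the lineage-negative libraries, where Fbln1 was far higher over all cells, so their values give no background for the lineage-positive libraries, whose free RNA was not measured. Efemp1 in the SMC class, at 3.69, 4.03 and 2.24 CPM, was beside 1.83, 2.43 and 4.49 CPM in macrophages. Efemp1 was highest in mesothelial cells, the lining of the outer surface, at 543.2 CPM in the library labelled Klf4-floxed and 766.1 CPM in Marfan, where the control had too few such cells. Cluster 1 was the main source of Loxl2: it had 196.8, 175.7 and 151 CPM and held 79.1%, 58.8% and 69.6% of all Loxl2 UMIs in the kept lineage-negative cells with 39.2%, 23.5% and 32.5% of all UMIs, against 39.5, 46.8 and 36.5 CPM in the fibroblast class. Loxl1 was highest in the fibroblast class, at 373.9, 307.8 and 354.5 CPM, against 152.8, 139.4 and 99.3 CPM in the SMC class.

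**Figure D2:**
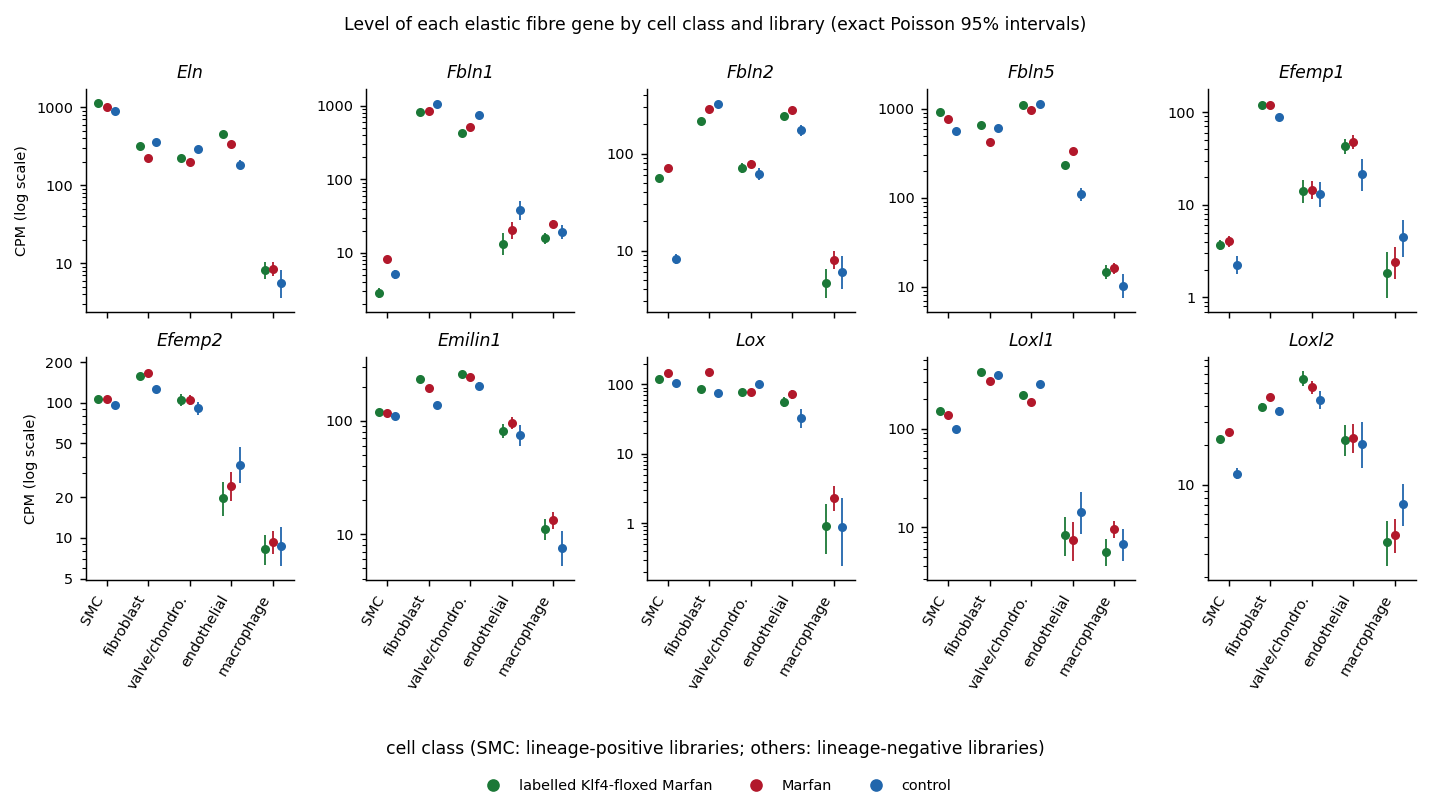
CPM of the 10 genes by cell class (a panel for each gene, with its own log axis), a point for each library coloured by genotype, with exact 95% Poisson intervals for counting error. Eln points are highest in the SMC class at 885.9 to 1116 CPM, and the Fbln1 points of the SMC class, at 2.87 to 8.34 CPM, lie below those of macrophages, which are from the lineage-negative libraries.

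Lineage-negative fibroblasts fell into clusters that split the same genes. Cluster 6, led by Pi16 and Clec3b, was compared with cluster 5, led by Hsd11b1, Gdf10 and Vegfd, in each library. Eln had 203.2, 133.1 and 162.3 CPM in cluster 6 of the libraries labelled Klf4-floxed Marfan, Marfan and control, against 392.1, 428.8 and 532.7 CPM in cluster 5. Fbln5 had 284.5, 265.7 and 311.7 CPM in cluster 6, against 886.8, 759.9 and 850.5 CPM in cluster 5, and Lox 55.5, 60.3 and 55.9 CPM, against 104.8, 125.5 and 90.3 CPM. Fbln2 ran the other way, with 421, 508.8 and 445.2 CPM in cluster 6 against 80.5, 95.2 and 215.6 CPM in cluster 5. Efemp1 had 212.5, 198 and 141.2 CPM against 59.1, 53.9 and 42.0 CPM, and Loxl2 70.9, 70.4 and 60.8 CPM against 18.9, 21.5 and 15.6 CPM. All 6 of these differences passed 1.5-fold in each library, in which 17.8%, 17.8% and 12.9% of the genes measured did. The clusters were made from other genes of the same cells, so these values describe them and test nothing.

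In SMCs, the state called modulated was cluster 8, led by Timp4, Nrgn, Fetub, Tnfrsf11b and Fn1, with 16330, 18730 and 16210 CPM of summed contractile markers against 46750 to 50880 CPM in cluster 2 and 54080 to 64710 CPM in cluster 3. The modulated cells were 17.5%, 8.22% and 1.48% of kept lineage-positive cells in the libraries labelled Klf4-floxed Marfan, Marfan and control, and the control value rests on 77 cells. Cluster 0 was 53.4% of the cells but 13.9% of the UMIs of the Marfan library, and modulated cells held 20.4%, 16.9% and 1.67% of the UMIs of kept cells, closer between the Marfan genotypes. Fbln2, Fbln5, Efemp1, Fbln1, Loxl1 and Emilin1 were past 1.5-fold higher in modulated than in unmodulated SMCs (clusters 2 and 3) in all 3 libraries, and Eln in Marfan. The Emilin1 call in control (0.59) was kept in 7 of 13 alternatives, with a lowest value of 0.20, and its calls in both Marfan genotypes in 11 of 13. That made 6, 7 and 6 of 10 genes higher and 0 lower, where 23%, 22% and 30.8% of all genes measured were past 1.5-fold in either direction and 12.6%, 12.5% and 17.8% were higher. Efemp1 and Fbln1 reached 5 CPM only in modulated cells in each library, so neither could have been counted as lower. The median log2 ratio of the 10 genes was 0.95, 0.90 and 0.68, against −0.05, −0.03 and 0.03 over all genes measured. Efemp1 and Fbln1 are part of this median and of the counts of higher genes, and they raise both. The state was defined by clustering the same cells, so these ratios are descriptions.

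Fbln2 and Efemp1 had the steepest grades among the members whose direction held in the alternatives tried. Fbln2 had 157.2, 227.3 and 123.8 CPM in modulated SMCs of the libraries labelled Klf4-floxed Marfan, Marfan and control, against 20.7, 22.3 and 5.02 CPM in unmodulated ones. The log2 ratios were 2.92 [2.81, 3.03], 3.35 [3.23, 3.47] and 4.62 [4.28, 4.97]. Cluster 3, SMCs led by Igfbp2, P2rx1 and Actg2, lay between with 27.4, 27.3 and 13.4 CPM, and cluster 2, SMCs led by Kcnab1 and Sost, was lowest with 7.86, 9.19 and 3.39 CPM. After thinning, 20.6%, 26% and 16.9% of modulated cells held an Fbln2 UMI (56.6%, 60% and 37.7% unthinned), against 0.623%, 1.85% and 1.84% of macrophages of the lineage-negative libraries.

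Fbln5 was at 1810, 1561 and 1621 CPM in modulated SMCs, against 620.3, 481.9 and 528.2 CPM in unmodulated ones, with log2 ratios of 1.54 [1.52, 1.57], 1.695 [1.66, 1.73] and 1.62 [1.54, 1.69]. Its modulated level was thus close in the 3 libraries and was above every unmodulated value. Loxl1 had 256.3, 214.7 and 165.7 CPM against 117.3, 114.9 and 97.3 CPM (log2 ratio 1.13, 0.90 and 0.77), and Emilin1 170.8, 168.8 and 162.7 CPM against 99.7, 99.8 and 108 CPM (0.78, 0.76 and 0.59). Efemp1 had 10.4, 12.9 and 10.2 CPM against 1.36, 0.65 and 2.01 CPM, with log2 ratios of 2.94 [2.51, 3.38], 4.32 [3.66, 5.03] and 2.35 [1.23, 3.31], the control value resting on 10 UMIs in modulated cells. Fbln1 had 7.32, 11.7 and 40.9 CPM against 1.29, 1.65 and 3.99 CPM (log2 ratio 2.50, 2.82 and 3.36). With finer clusters (resolution 2), which also changed the cells on each side, the Fbln1 ratio was −2.47 and −2.80 in the 2 Marfan genotypes. In cluster 8 the summed fibroblast markers were 653.4, 481.2 and 1207 CPM and the summed valve markers 493.5, 762.4 and 1064 CPM, both highest in control as Fbln1 was, and their part in the result was not tested.

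Efemp2, Lox and Loxl2 differed less between the states. Eln was past 1.5-fold in Marfan, with a ratio close to that of Loxl1, and stayed so in 13 of 13 alternatives. In the other libraries it was under 1.5-fold and depended on how cells were filtered and clustered. Eln had 1328, 1518 and 1279 CPM in modulated SMCs, against 1041, 812.9 and 873.9 CPM in unmodulated ones (log2 ratio 0.35, 0.90 and 0.55). At resolution 2 these ratios were 0.79, 1.35 and 1.23, and Eln stayed under 1.5-fold in 10 of 13 alternatives in the library labelled Klf4-floxed and in 8 of 13 in control. The groups compared at resolution 2 hold other cells. A cluster with Eln itself among its leading genes is then named modulated, and a cluster led by Igfbp2 and P2rx1 is left out of the unmodulated side. Efemp2 had 126.1, 129.8 and 117.6 CPM against 99.1, 98.1 and 95.8 CPM. Lox had 128.1, 191.7 and 139.1 CPM against 118.5, 132 and 103 CPM, so that its modulated cells stood out most in Marfan. Loxl2 had 24.2, 21.2 and 15.3 CPM against 21.9, 26.6 and 12.05 CPM, and each interval of its ratio but that of Marfan, −0.32 [−0.53, −0.12], held 0. Loxl2 was higher in cluster 3 than in cluster 2, with 26.5, 31.7 and 23.4 CPM against 12.9, 13.04 and 9.84 CPM, a log2 ratio of 1.04, 1.28 and 1.25 where 2.61%, 4.96% and 5.08% of genes were past 1.5-fold.

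Other genes of the pathway moved beside them. Of 16, 16 and 17 partners measured, 9, 8 and 10 were past 1.5-fold higher in modulated SMCs and 2 in each library lower. Over all genes measured, 12.6%, 12.5% and 17.8% were higher, and 23%, 22% and 30.8% were past 1.5-fold in either direction. Fbn1, fibrillin-1, was at 325.8, 281.5 and 198.5 CPM in modulated SMCs against 101.2, 95.8 and 96.3 CPM in unmodulated ones, and Ltbp2, a latent TGF-β binding protein that also attaches to fibrillin, at 357.7, 241 and 265 CPM against 72.8, 72.6 and 40.7 CPM. Tnxb, tenascin-X, was lower with 2.23, 2.6 and 16.4 CPM against 15.4, 15.04 and 31.3 CPM. Of 9 proteases and inhibitors measured, 6, 7 and 7 were higher and 0 lower. The inhibitor Timp1, a gene of the marker list for modulated SMCs, had 872.5, 1116 and 720.2 CPM against 50.5, 67.5 and 16.2 CPM, and the stromelysin Mmp3 242.9, 275.8 and 173.9 CPM against 15.8, 23.2 and 12.3 CPM.

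**Figure D3:**
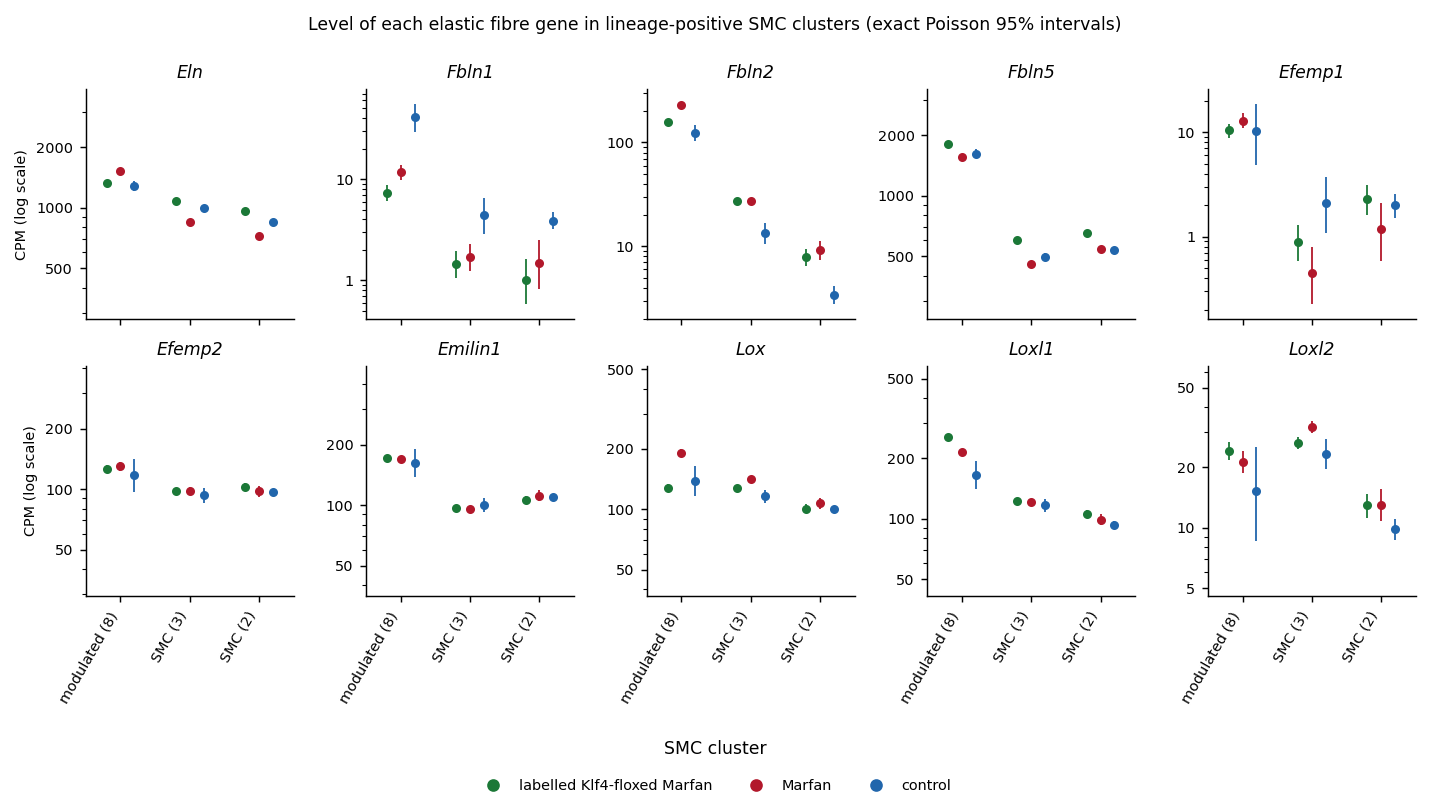
CPM of the 10 genes in the SMC clusters of the lineage-positive libraries (a panel for each gene, with its own log axis), a point for each library with exact 95% Poisson intervals for counting error, modulated cluster 8 to the left of clusters 3 and 2. Fbln2 steps down from 123.8 to 227.3 CPM in cluster 8 through 13.4 to 27.4 CPM in cluster 3 to 3.39 to 9.19 CPM in cluster 2, while Loxl2 is highest in cluster 3 in each library.

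Marfan was set against control in the SMC class, 9495 cells against 3144, to see what the fibrillin-1 allele accompanies in SMCs. Fbln2 and Loxl2 were higher in Marfan, and Eln, Efemp2 and Emilin1 differed little. Past 1.5-fold, 3 of the 9 genes with at least 5 CPM were higher and 0 lower, where 7.11% of 9384 genes measured were past it and 3.92% were higher. The median log2 ratio was 0.48 for the 9 genes and −0.10 for all genes measured. Fbln2 had 71.0 CPM in Marfan against 8.20 CPM in control (log2 ratio 3.11 [2.94, 3.29]). Loxl2 had 25.1 CPM in Marfan and 12.2 CPM in control (1.04 [0.89, 1.20]). Fbln1 had 8.34 and 5.11 CPM (0.71 [0.46, 0.96]), and without the shallow cluster 0 its log2 ratio was −0.25.

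The other members leaned the same way with smaller ratios. Lox had 144.7 CPM in Marfan and 103.7 CPM in control (0.48 [0.42, 0.54]), Loxl1 139.4 and 99.3 CPM (0.49 [0.43, 0.55]), and Fbln5 757.6 and 560.2 CPM (0.44 [0.41, 0.46]). Eln had 996.5 CPM in Marfan and 885.9 CPM in control (0.17 [0.15, 0.19]). Efemp2 had 107.2 and 96.8 CPM (0.15 [0.09, 0.21]) and Emilin1 116.4 and 109.6 CPM (0.09 [0.03, 0.14]). The mix of states differed between the libraries along with these ratios, with modulated cells at 16.9% of the UMIs of kept lineage-positive cells in Marfan and 1.67% in control (8.22% and 1.48% of the cells), and cluster 3 at 36.0% and 9.70% of the UMIs (17.5% and 8.14% of the cells). In the SMC class, summed modulated SMC markers were 3576 CPM in Marfan and 685 CPM in control, and summed fibroblast markers 237.6 and 83.8 CPM, with 4 of 7 over 5 CPM in each. Summed macrophage markers were 8.25 and 1.91 CPM, with 0 of 7 over 5 CPM. The part of these in the ratios was not tested.

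Within clusters most of the differences were smaller or turned. Fbln2 was higher in Marfan in each, with 9.19 against 3.39 CPM in cluster 2 (log2 ratio 1.44), 27.3 against 13.4 CPM in cluster 3 (1.02), 227.3 against 123.8 CPM in cluster 8 (0.88) and 9.22 against 3.00 CPM in cluster 4 (1.62), an unnamed lineage-positive population led by Tnnt2, Psd and Corin. Those clusters had 4.24%, 4.88%, 21.6% and 4.54% of genes past 1.5-fold. Eln was lower in Marfan in clusters 2 and 3, at 721.9 against 850.9 CPM and 847.7 against 991.9 CPM, and higher in cluster 8, at 1518 against 1279 CPM. Fbln5 was at 541 against 534.2 CPM in cluster 2 and 1561 against 1621 CPM in cluster 8. Loxl2 was at 13.04 against 9.84 CPM in cluster 2 (0.41) and 31.7 against 23.4 CPM in cluster 3 (0.44), below 1.5-fold in both. Loxl1 was at 99.2 against 93.6 CPM and 120.9 against 116.7 CPM in the same clusters.

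Of 16 partners measured in the SMC class, 2 were higher in Marfan and 2 lower. Over all genes measured there, 7.11% were past 1.5-fold and 3.92% were higher. Ltbp2 had 112.7 CPM in Marfan and 47.0 CPM in control, and Fbln7, fibulin-7, had 6.36 and 1.66 CPM. Mfap4, a microfibril-associated glycoprotein, had 293.9 and 557 CPM, and Tnxb 12.2 and 30.7 CPM. Of 9 proteases and inhibitors, 5 were higher and 0 lower, with Timp1 at 319.7 and 36.3 CPM, Mmp3 at 97.0 and 16.6 CPM and Mmp2, a gelatinase, at 44.3 and 11.9 CPM.

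A further comparison took the library labelled Klf4-floxed over Marfan in the same class, 4593 cells against 9495, and both comparisons use the Marfan library. Of 9 members measured 0 were higher and 1, Fbln1, was lower past 1.5-fold, where 0.955% of 9215 genes measured were past it. Fbln1 had 2.87 CPM in the library labelled Klf4-floxed and 8.34 CPM in Marfan (log2 ratio −1.54 [−1.80, −1.29]), and −0.56 without cluster 0. It reached 5 CPM only in Marfan and so could not have been called higher. Eln had 1116 and 996.5 CPM (0.16 [0.15, 0.18]), Fbln5 926.8 and 757.6 CPM (0.29 [0.27, 0.31]), and Fbln2 55.6 and 71.0 CPM (−0.35 [−0.42, −0.28]). Lox had 120.7 and 144.7 CPM (−0.26 [−0.31, −0.22]), Loxl1 152.8 and 139.4 CPM (0.13 [0.09, 0.18]) and Loxl2 22.5 and 25.1 CPM (−0.16 [−0.26, −0.05]). The intervals of Efemp2, −0.02 [−0.07, 0.04], and Emilin1, 0.02 [−0.03, 0.07], held 0. Within modulated cells Lox had 128.1 CPM in the library labelled Klf4-floxed and 191.7 CPM in Marfan (−0.58 [−0.67, −0.49]), just inside 1.5-fold, and Fbln2 157.2 and 227.3 CPM (−0.53 [−0.61, −0.45]). Eln there was at 1328 and 1518 CPM (−0.19), where the whole class had the opposite sign, and Fbln5 at 1810 and 1561 CPM (0.21). Of 16 partners and 9 proteases and inhibitors measured in the class, 0 were past 1.5-fold.

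**Figure D4:**
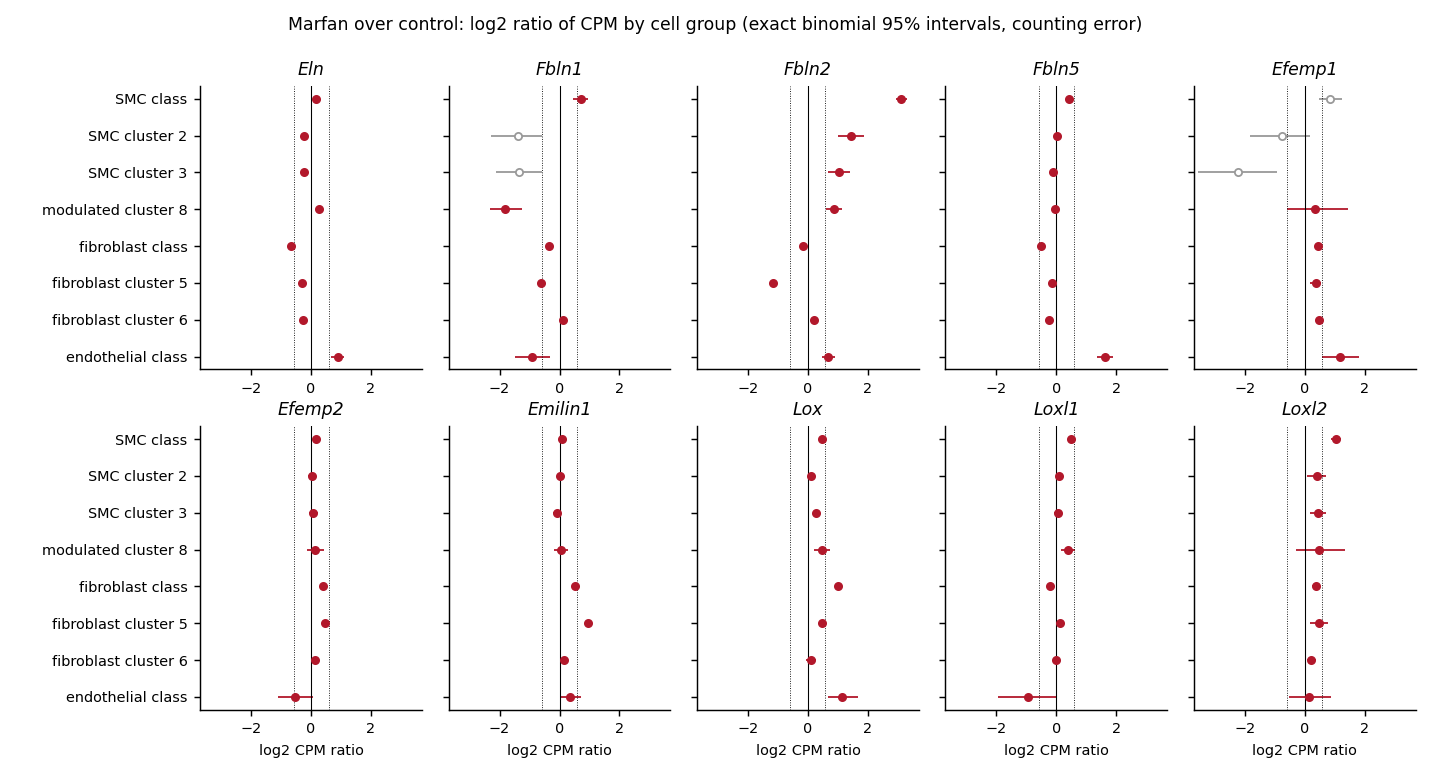
Log2 ratio of CPM, Marfan over control, for the 10 genes (a panel for each) by cell class or cluster, with exact 95% intervals for counting error, dotted lines at 1.5-fold and open grey points where neither library reached 5 CPM. Fbln2 in Marfan against control is at 3.11 in the SMC class and at 0.88 to 1.44 within clusters 2, 3 and 8.

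In lineage-negative fibroblasts Marfan was set against control, 2835 cells against 2047. Lox was higher and Eln lower past 1.5-fold, 2 of 10 genes, where 11.9% of 10124 genes measured were past it. Neither was past it without a population seen almost only in the Marfan lineage-negative library. Lox had 150.1 CPM in Marfan and 74.4 CPM in control (log2 ratio 1.01 [0.93, 1.10]). Eln had 225.2 CPM in Marfan and 361.8 CPM in control (−0.68 [−0.73, −0.64]). Fbln5 had 425 and 602 CPM (−0.50), Emilin1 195.1 and 137.3 CPM (0.51), Efemp1 120.3 and 87.8 CPM (0.45), Efemp2 166.1 and 126.8 CPM (0.39) and Fbln1 849.5 and 1072 CPM (−0.34). Loxl2 had 46.8 and 36.5 CPM (0.36), Loxl1 307.8 and 354.5 CPM (−0.20) and Fbln2 284.2 and 321.5 CPM (−0.18).

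That population was cluster 13, led by Il11, Cxcl5, Il6 and Csf3, genes of secreted cytokines. It had 3 cells in the Marfan lineage-positive library and 246 in the Marfan lineage-negative one, there with a median of 21828 UMIs. Its summed modulated SMC markers were 38040 CPM, against 939.5 CPM in the control's fibroblast class. Lox was at 407.2 CPM in cluster 13, against 91.0 CPM in clusters 5 and 6 of that library (log2 ratio 2.16), and cluster 13 held 41.0% of the library's Lox UMIs with 7.85% of all its UMIs. Eln was at 19.5 against 272.5 CPM (−3.80), Loxl1 at 51.2 against 366.7 CPM (−2.84), Fbln1 at 130.4 against 1015 CPM (−2.96) and Fbln5 at 104.4 against 498.7 CPM (−2.26). Efemp2 was at 216 against 154.6 CPM (0.48) and Loxl2 at 44.1 against 47.4 CPM. In all 1 member was higher and 6 lower past 1.5-fold, where 62.3% of genes measured were past it. Without cluster 13 the Marfan against control ratio of the fibroblast class was 0.29 for Lox and −0.41 for Eln, neither past 1.5-fold, and 0.59 for Emilin1, which was past it. Fbln5 was then at −0.27, Fbln1 at −0.079 and Fbln2 at −0.035, and Loxl1 turned to 0.049. Efemp1 was at 0.57, Loxl2 at 0.38 and Efemp2 at 0.29. Of 18 partners measured in the fibroblast class 0 were higher in Marfan and 2 lower, with Mfap4 at 386 CPM in Marfan against 964.3 CPM in control and Ltbp1 at 63.1 against 100.8 CPM. In that comparison 11.9% of all genes measured were past 1.5-fold. Of 10 genes on the elastin breakdown list 3 were higher and 0 lower, with Timp1 at 3873 and 296 CPM and Mmp3 at 1089 and 646.9 CPM.

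Cluster 5 alone gave another picture of Marfan fibroblasts. Fbln2 had 95.2 CPM in Marfan and 215.6 CPM in control (log2 ratio −1.18 [−1.28, −1.08]), the opposite sign from the SMC class, and Fbln1 581.8 and 883.8 CPM (−0.60 [−0.65, −0.56]). Emilin1 had 275.2 and 141.8 CPM (0.96 [0.87, 1.05]). These 3 of 10 were past 1.5-fold, where 9.55% of genes measured were. The library labelled Klf4-floxed had 80.5 CPM of Fbln2, 518.6 CPM of Fbln1 and 267.1 CPM of Emilin1 in cluster 5, on the Marfan side of control for each gene. In cluster 6, Fbln2 had 508.8 CPM in Marfan and 445.2 CPM in control, and Emilin1 144.9 and 132 CPM. In the library labelled Klf4-floxed against Marfan, the fibroblast class had Lox at 85.3 and 150.1 CPM (−0.82) and Fbln5 at 648.7 and 425 CPM (0.61), where 7.48% of genes measured were past 1.5-fold. Without cluster 13 these were −0.09 and 0.38.

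Endothelial cells of the lineage-negative libraries, 367 in Marfan and 180 in control, had Eln, Fbln5, Lox, Fbln2 and Efemp1 higher in Marfan and Fbln1 and Loxl1 lower past 1.5-fold, 7 of 10 where 25.5% of genes measured were past it. Fbln5 had 336.5 CPM in Marfan and 110.3 CPM in control (log2 ratio 1.61 [1.35, 1.88]), Eln 337.9 and 182.4 CPM (0.89 [0.68, 1.10]) and Lox 71.8 and 32.5 CPM (1.14 [0.65, 1.66]). Efemp1 had 47.96 and 21.4 CPM, Fbln2 277.6 and 172.9 CPM, Fbln1 20.3 and 38.1 CPM, and Loxl1 7.35 and 14.3 CPM, the last interval holding 0. The class joins vascular and lymphatic cells. In vascular cells, separated at resolution 2, Eln had 669.5, 456.4 and 213.7 CPM in the libraries labelled Klf4-floxed Marfan, Marfan and control, and Fbln5 306.3, 502.4 and 91.1 CPM, while lymphatic cells had 124.7, 164.6 and 107.7 CPM of Eln. Fbln5 and Fbln2 were not higher in lymphatic cells of Marfan, with 121.8, 93.9 and 156.1 CPM of Fbln5 and 161.8, 155.1 and 207.2 CPM of Fbln2 in the same order. Summed SMC markers in the endothelial class were 196, 453.7 and 151.5 CPM in the same order, highest in Marfan, and their part in the result was not tested.

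Likeness between genes was described over 29 sums of UMIs per class and library with Pearson's r of log2(CPM + 1). Sums of 1 library share its depth and free RNA, and no p is given. The genes most like Eln were Pdgfd (0.97), Tmem47 (0.96) and Msrb3 (0.96), and among the members Lox (0.94), Fbln5 (0.90) and Efemp2 (0.82). Fbln1 was most like Gpm6b (0.96), Dcn (0.95) and Cygb (0.94), and its r with Eln was −0.12. Fbln2 was most like Vamp5 (0.87), Cdh11 (0.86) and Plscr2 (0.85), and among the members Efemp1 (0.81) and Loxl2 (0.71). Among the genes most like Fbln5 were Bgn (0.97) and Kazald1 (0.97).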

How the data were processed

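The 6 libraries (3 genotypes, each sorted into lineage-positive and lineage-negative cells) were made with the 10x Chromium 3′ version 3 kit after Liberase and elastase digestion, per the labels' protocols. The deposited values are raw counts of UMIs per gene and barcode, per the file headers. The submitters' processing notes name Cell Ranger 6.1.2 and mm10, and whether the deposited barcodes had been filtered further is not stated in the labels. The members and gene lists were chosen with earlier results of these data known. No columns of unmapped samples were used.

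Barcodes were kept from 1000 UMIs and 500 genes upward, with a mitochondrial share of 10% or less. Doublets were scored with Scrublet in each library, and where its automatic threshold marked too few cells the highest scores were removed at 0.8% per 1000 cells. Cells were scaled to 10000 UMIs and clustered with scanpy 1.11.5 (2000 variable genes, 30 principal components, 15 neighbours, Leiden resolution 1), leaving out the 10 members and both lists, 46 genes in all. Names came from 18 marker lists, and 5 of 17 clusters stayed unnamed.

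Levels are UMIs of a gene in 1000000 UMIs summed over a class in a library (CPM), with exact Poisson intervals, and ratios have exact conditional binomial intervals. A gene was measured in a comparison where either side reached 5 CPM, and was called past 1.5-fold. The fractions were compared with edgeR 4.0.16 on summed counts of all barcodes, with genotype as a block because both fractions of a genotype came from the same pooled aortas, TMM scaling and a threshold of 0.05 on the adjusted p. The test was checked on simulated counts with as many genes raised as lowered, a check that cannot decide between ways of scaling. All 10 members are described, list genes were named among the 6 with the largest ratio in a comparison, and the 3 most alike genes were taken among those with 20 CPM in at least 1 sum, of which one is not reported here. The alternatives were other scaling, filters, clustering, tools and left-out libraries or clusters.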

Additional observations from a re-analysis of the deposited data

Results flagged for a closer look

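Some differences between cell groups under the same contrast, Marfan against control, are given here. In each the sign of the ratio was opposite in the 2 groups, both ratios were past 1.5-fold and both counting intervals excluded 0. The list is not complete for opposite signs. Fbln5, higher in endothelial cells and lower in the fibroblast class, where it was under 1.5-fold, was left out. Each rests on 1 library per genotype, and the differences themselves were not tested.

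Fbln2 was higher in Marfan in the SMC class (log2 ratio 3.11) and lower in fibroblast cluster 5 (−1.18), a difference of 4.29. It was also higher in endothelial cells (0.68), which differed from cluster 5 by 1.86. Eln was lower in Marfan in the fibroblast class (−0.68) and higher in endothelial cells (0.89), a difference of −1.57, and the fibroblast value was −0.41 without cluster 13. Fbln1 was higher in the SMC class (0.71) and lower in endothelial cells (−0.91) and in cluster 5 (−0.60), differences of 1.61 and 1.31, but its sign in the SMC class turned without the shallow cluster 0. Efemp1 was higher in endothelial cells (1.16) and lower in cluster 1 (−0.63), a difference of 1.80.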

How the results depend on the processing

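For the fractions, the fit without the genotype block called 10048 genes in place of 10856, and the other settings 8380 to 11021, with 8380 to 10463 when both libraries of a genotype were left out. The calls of 8 members were kept in the fit without the block. With library sizes only Emilin1 was at −0.13, Efemp2 was no longer called (0.06) and Loxl1 was called (−0.72), and Loxl1 was also called without the control libraries (−0.17) and with DESeq2 (−0.41). Emilin1 was called with no filter on low counts (0.21).

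Fbln1 in the SMC class, Marfan against control, turned to −0.058 with cells of at least 4000 UMIs, −0.70 and −0.50 at mitochondrial limits of 5% and 20%, −0.16 at resolution 2, −0.25 without the shallowest cluster, −0.44 over all barcodes and −0.81 with unnamed clusters joined to their best match. In modulated SMCs it turned to −2.47 and −2.80 at resolution 2 in the library labelled Klf4-floxed and in Marfan, and to −0.44 in the library labelled Klf4-floxed with unnamed clusters joined. The cause was not tested.

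Counts of members called in the SMC class, library labelled Klf4-floxed against Marfan, went to 0 in place of 1 with cells of at least 4000 UMIs, without the shallowest cluster, over all barcodes and with unnamed clusters joined. In fibroblasts, Marfan against control, 2 became 1 at mitochondrial limits of 5% and 20%, with doublets kept, at resolution 0.5, with members among the clustering genes, with each cell counted alike, over all barcodes, with unnamed clusters joined and without the Il11 cluster, 0 at resolution 2, and 7 without the shallowest cluster. The shallowest fibroblast cluster was cluster 6, with 1397 of the 2835 Marfan cells, and leaving it out keeps clusters 5 and 13. In fibroblasts of the library labelled Klf4-floxed against Marfan, 2 became 1 at a limit of 5%, with median-of-ratios scaling, over all barcodes and with unnamed clusters joined, and 0 at 20%, with doublets kept, at resolution 0.5 or 2, with members among the clustering genes, with each cell counted alike and without the Il11 cluster. The number of members highest in the SMC class was 1 in place of 2 without the shallowest cluster. At resolution 2 the Il11 cluster was unnamed and so left the fibroblast class, and a cluster led by Prss35 was named fibroblast and joined it. The causes of these moves were not tested, beyond that Lox and Eln were both under 1.5-fold without the Il11 cluster. Joining unnamed clusters and leaving out the Il11 cluster were chosen after seeing the data.

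Fbln2 in the SMC class, Marfan against control, stayed between 2.94 and 3.49 and Loxl2 between 0.90 and 1.14 over 14 alternatives. Modulated against unmodulated SMCs, the ratio crossed 1.5-fold in at least 3 of 13 alternatives for Emilin1 in control (0.20 to 0.85), Eln in control (0.31 to 1.23) and in the library labelled Klf4-floxed (0.21 to 0.79), and Lox in Marfan (0.45 to 0.71). Free RNA of the lineage-positive libraries was not measured, and it limits what low levels such as Fbln1 and Efemp1 in SMCs can show.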

Other observations

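The lineage-positive and lineage-negative cells of cluster 9, the valve interstitial or chondrocyte class, differed in Eln within each genotype. Eln had 453.3, 766.4 and 650.8 CPM in lineage-positive cells of the libraries labelled Klf4-floxed Marfan, Marfan and control, against 226, 200.1 and 292.2 CPM in lineage-negative cells. Fbln1 ran the other way, with 280.6, 338.3 and 481.1 CPM against 421.7, 522.6 and 749.4 CPM, and Loxl2 had 29.6, 31.8 and 10.4 CPM against 64.6, 55.2 and 44.3 CPM. Summed SMC markers in the valve interstitial or chondrocyte class were 11610, 12840 and 10750 CPM in lineage-positive cells and 3282, 2586 and 2363 CPM in lineage-negative cells.

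Cluster 4, the unnamed lineage-positive population led by Tnnt2 and Corin, carried more Fbln5 and Fbln1 and less Eln than SMC cluster 2. Fbln5 was at 1159, 837.8 and 738.2 CPM in cluster 4 against 649.8, 541 and 534.2 CPM in cluster 2 of the libraries labelled Klf4-floxed Marfan, Marfan and control. Fbln1 was at 35.8, 33.1 and 49.9 CPM against 1.01, 1.496 and 3.91 CPM, and Eln at 713.9, 593.1 and 480.3 CPM against 965, 721.9 and 850.9 CPM. Cluster 15, led by Ifitm1, Vtn and the pericyte marker Rgs5, had 165.2 and 131.8 CPM of Fbln1 in the libraries labelled Klf4-floxed and Marfan, above every named SMC cluster.

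Mesothelial cells, the highest source of Efemp1, also had 293.5 and 517.4 CPM of Fbln2 and 102.4 and 163 CPM of Loxl2 in the libraries labelled Klf4-floxed and Marfan. They had 20.7 and 32.0 CPM of Lox.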
